A study of Bos taurus with 30 samples.

Results

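A set of 10 genes of insulin and insulin-like growth factor (IGF) signalling was examined in RNA-seq libraries of bovine endometrial cells cultured in a microfluidic endometrium-on-a-chip. They are the receptor genes INSR (ENSBTAG00000012687), IGF1R (ENSBTAG00000021527) and IGF2R (ENSBTAG00000002402), the ligand genes IGF1 (ENSBTAG00000011082) and IGF2 (ENSBTAG00000013066), the adaptor genes IRS1 (ENSBTAG00000021308) and IRS2 (ENSBTAG00000012019), PIK3R1 (ENSBTAG00000010989), AKT1 (ENSBTAG00000017636) and AKT2 (ENSBTAG00000001400). These 10 members were taken by gene name out of 27607 counted genes, and each name matched 1 protein-coding gene. Primary epithelial and stromal cells came from uteri of nonpregnant cows early in the luteal phase, and were grown on either side of a porous membrane, with epithelial cells in the upper and stromal cells in the lower chamber. In the glucose experiment, cells received medium with 5 mM or 50 mM glucose (12 libraries). In the insulin experiment, all cells received medium with 5 mM glucose and either a vehicle (acetic acid in PBS), 1 ng/mL insulin or 10 ng/mL insulin (18 libraries). Each of the 10 groups held 3 replicates, and the cell populations were enriched by plating rather than pure.

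Insulin and the IGFs act through related receptors at the cell surface. The insulin receptor (INSR) and the IGF1 receptor (IGF1R) are tyrosine kinases that bind insulin, IGF1 and IGF2 with different affinities, whereas the IGF2 receptor (IGF2R, also the cation-independent mannose 6-phosphate receptor) mainly takes up IGF2 for breakdown and sorts lysosomal enzymes. Activated INSR and IGF1R phosphorylate the insulin receptor substrates (IRS1 and IRS2), which recruit PI3-kinase through its regulatory subunit p85α (PIK3R1). The lipid made by PI3-kinase brings AKT1 and AKT2 to the membrane, from where they act on glucose uptake, growth and survival. In the uterus, IGFs of maternal origin are known growth factors for the endometrium and the early embryo.

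A glucose library held 13493503 to 16647701 counted reads and an insulin library held 8826470 to 13214728. Levels are given in CPM, the count of a gene per 1000000 counted reads of its library, so they compare a gene between libraries and not 1 gene with another. Of 10 epithelial markers (such as keratins, EPCAM and CDH1), the summed level was 6498 to 14164 CPM in epithelial libraries, 1.23 to 281 CPM in stromal insulin libraries and 75.5 to 4384 CPM in stromal glucose libraries. Of 10 stromal markers (such as collagens, DCN and VIM), the sum was 20020 to 81596 CPM in stromal and 1017 to 6335 CPM in epithelial libraries. A pair of glucose libraries stood apart. The stromal library of replicate 3 at 50 mM held 4384 CPM of epithelial markers, against at most 1127 CPM in the other stromal glucose libraries, and had the lowest stromal marker sum (20020 CPM). Later mentions of the library that held epithelial markers mean this one, which held the most of them. The epithelial library of replicate 2 at 5 mM held the highest epithelial marker sum (14164 CPM), against at most 7786 CPM in the other epithelial libraries of that experiment. The epithelial marker sum of stromal libraries was also higher at 50 than at 5 mM in the other replicates. It was 1127 against 491 CPM in replicate 1 and 923 against 325 CPM in replicate 2. In epithelial libraries, stromal markers were higher at 50 mM in every pair. They went from 4686 to 6335, 2906 to 5421 and 1546 to 2279 CPM. The part of these markers in the glucose comparisons was not tested. Among other cell types, the 1 leukocyte marker with a name in the files, of 4 listed, had 0.445 to 4.28 CPM. The 3 endothelial markers of 4 listed summed to between 15.7 and 76.6 CPM in epithelial libraries and between 1.15 and 19.2 CPM in stromal ones, and the 3 smooth muscle and pericyte markers summed to 2.69 to 225 CPM and 107 to 2559 CPM, each with at most 1 marker at 0 in a library.

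**Figure D1:**
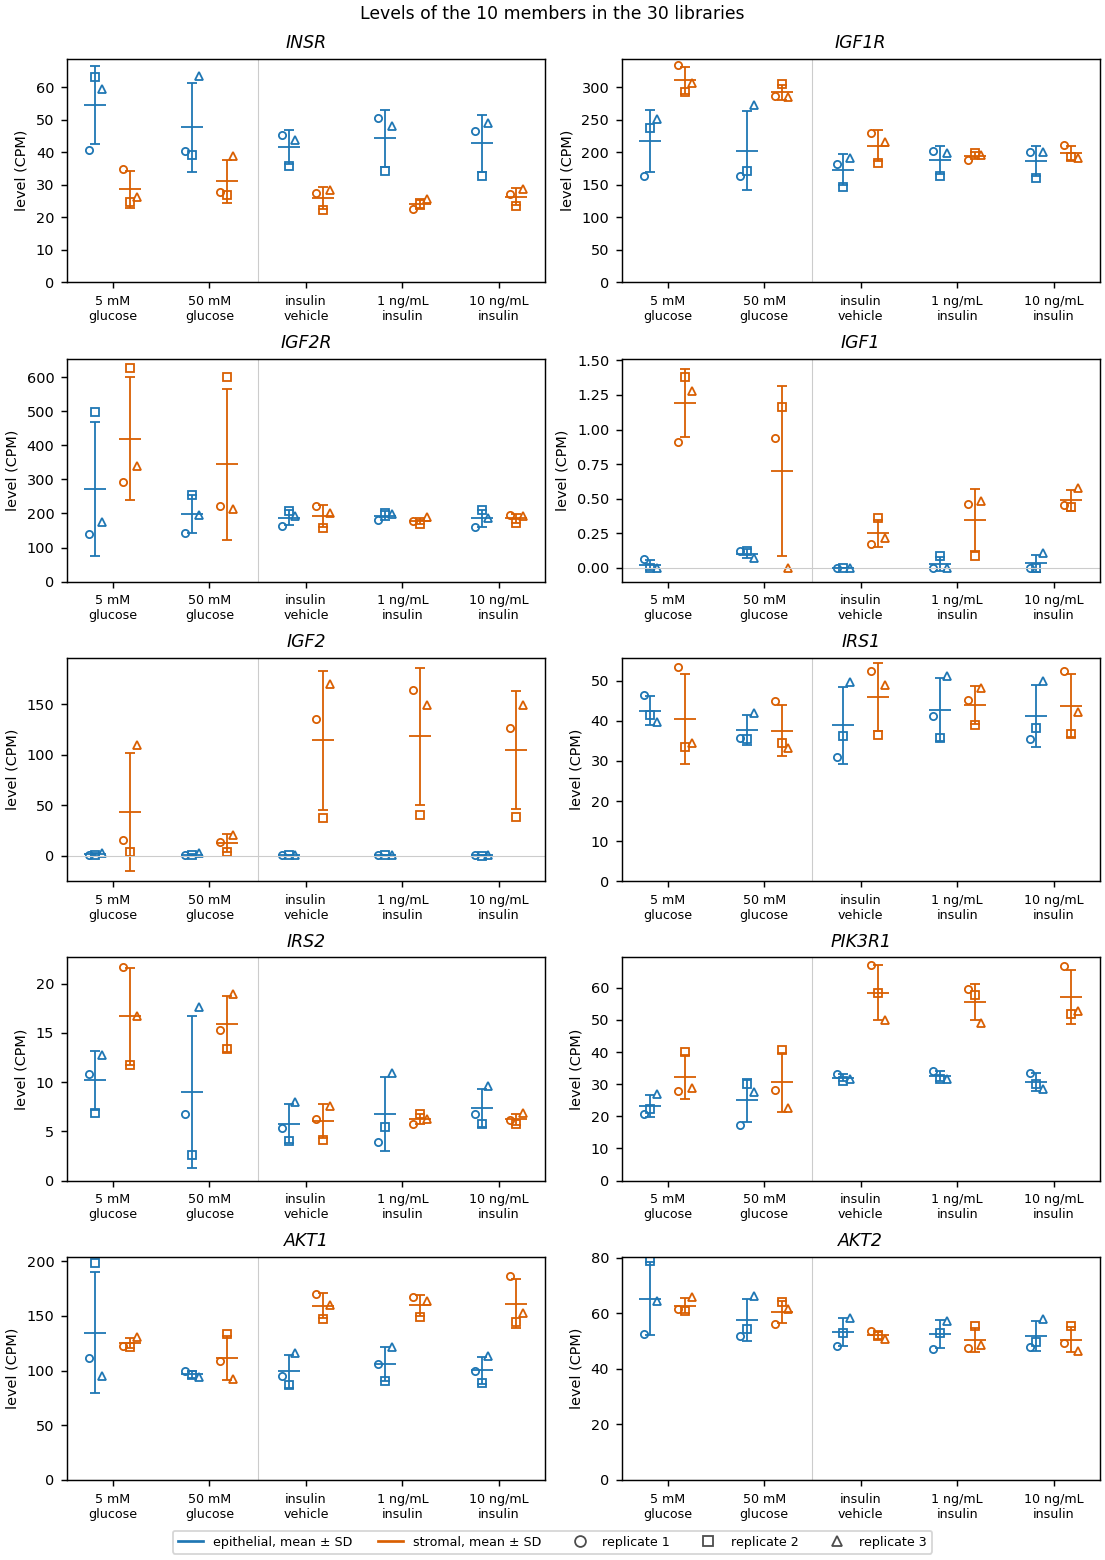
Level of each gene in CPM (vertical axis, linear from 0) in the 10 groups (horizontal axis), with epithelial cells in blue and stromal cells in orange. Each point is 1 library with its shape giving the replicate number, and bars show mean and SD of 3 libraries. INSR was higher in the epithelial libraries and IGF2 in the stromal libraries of both experiments, while the stromal groups of IGF2 had means of 12.5 CPM at 50 mM and 43.1 CPM at 5 mM glucose, which were not called different.

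Each group of 3 epithelial libraries was compared with the 3 stromal libraries of the same treatment. This asks how the receptors, ligands and signalling genes are divided between the chambers of the device. Calls needed an adjusted p under 0.05 (quasi-likelihood test of edgeR, Benjamini-Hochberg adjustment over all genes tested) and a log2 fold change above 0.1 or below -0.1. Negative fold changes mean a lower level in epithelial cells. In bulk libraries, fewer cells of a type and less RNA per cell cannot be told apart. Replicate numbers come from the library labels, and the paper's figure captions give 3 biological replicates. With the replicate number as a block, the tests judge a difference against the spread left between same-numbered pairs. Replicate numbers recur across the groups of an experiment, and same-numbered libraries of a cell type deviated together between treatments. Comparisons of the cell types within 1 experiment are therefore not independent of each other.

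The insulin receptor gene INSR was the member that was higher in epithelial cells. In the insulin vehicle group, INSR had 45.2, 35.7 and 43.8 CPM in epithelial and 27.4, 22.1 and 28.4 CPM in stromal libraries. At 1 ng/mL it had 50.4, 34.1 and 48.1 CPM against 22.6, 24.1 and 25.6 CPM, and at 10 ng/mL 46.6, 32.7 and 49.0 CPM against 27.0, 23.3 and 28.5 CPM. Every epithelial library of the insulin experiment was above every stromal library. The log2 fold change was 0.60 in the vehicle group (standard error 0.113, adjusted p = 0.0108), 0.75 at 1 ng/mL (standard error 0.153, adjusted p = 0.00898) and 0.58 at 10 ng/mL (standard error 0.129, adjusted p = 0.0183), all called with edgeR. In the vehicle group, this is 1.52-fold with a 95% interval from 1.24-fold to 1.87-fold. The call was lost without replicate 1 in the vehicle group (log2 fold change 0.50, adjusted p = 0.0549) and without replicate 1 or without replicate 3 at 10 ng/mL, with fold changes of 0.47 to 0.69 over the fits that left out 1 replicate.

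In the glucose experiment, INSR had 40.8, 63.1 and 59.4 CPM in epithelial and 34.9, 24.6 and 26.0 CPM in stromal libraries at 5 mM. At 50 mM it had 40.2, 39.0 and 63.5 CPM in epithelial and 27.7, 26.8 and 38.7 CPM in stromal libraries. Epithelial libraries were again all above the stromal libraries, and the highest stromal value was that of the library that also held epithelial markers. Neither difference was called: the log2 fold change was 0.71 (95% interval -0.21 to 1.62, adjusted p = 0.258 with edgeR) at 5 mM and 0.45 (0.05 to 0.84, adjusted p = 0.107) at 50 mM. Without replicate 3 the value at 50 mM was 0.54, and without replicate 2 the value at 5 mM was 0.45. Ordered by group mean, the 5 epithelial groups (41.6 to 54.4 CPM) stood above the 5 stromal groups (24.1 to 31.1 CPM), and neighbours within a cell type differed by less than the larger of their SDs.

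The IGF1 receptor gene IGF1R was lower in epithelial cells in the vehicle group, by less than INSR was higher. In the vehicle group it had 182, 146 and 191 CPM in epithelial and 230, 184 and 216 CPM in stromal libraries, so that the groups overlapped while each epithelial library was below the stromal library of its number. A value of -0.36 on the log2 scale (standard error 0.101, adjusted p = 0.0347 with edgeR) was called, but not in any of the 3 fits that left out 1 replicate (-0.41 to -0.32, adjusted p from 0.0806 to 0.145). The call was also lost without normalization beyond library totals and without the filter on low counts, and 3 of 8 alternative fits made it. IGF1R was not called at 1 ng/mL (-0.16, 95% interval -0.46 to 0.13) or 10 ng/mL insulin (-0.20, -0.52 to 0.12). At 5 mM glucose it had 163, 238 and 252 CPM in epithelial and 334, 293 and 306 CPM in stromal libraries, and at 50 mM 164, 172 and 272 CPM against 286, 305 and 285 CPM. All 6 stromal glucose libraries were above all 6 epithelial ones. The log2 fold changes of -0.75 (adjusted p = 0.201 with edgeR) and -0.72 (adjusted p = 0.0937) did not pass the threshold. Without the replicate that held epithelial markers in its stromal library, the value at 50 mM was -1.0 and was called (adjusted p = 0.0171 with edgeR). With all replicates, DESeq2 called the difference at 50 mM, and edgeR on all libraries of the experiment called it at 5 mM.

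IGF2R, the uptake receptor for IGF2, was not called between the cell types in the main edgeR fits. In the vehicle group it had 164, 207 and 191 CPM in epithelial and 222, 159 and 201 CPM in stromal libraries, with a log2 fold change of -0.12 (95% interval -0.55 to 0.31). In the glucose experiment, it was lower in epithelial cells in 3 of 3 pairs at both concentrations, with 141, 498 and 175 CPM against 293, 627 and 338 CPM at 5 mM and 143, 255 and 195 CPM against 220, 600 and 213 CPM at 50 mM. The log2 fold changes were -1.0 (adjusted p = 0.109 with edgeR) and -0.81 (adjusted p = 0.0846). With edgeR, the value at 5 mM was called without replicate 2, whose epithelial library stood apart (-1.26, adjusted p = 0.0334), and the value at 50 mM without replicate 3 (-1.11, adjusted p = 0.0190). With all replicates, DESeq2 called the difference at both concentrations, and edgeR on all libraries of the experiment called it at 5 mM.

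IGF2, the ligand of IGF1R, IGF2R and one form of INSR, was the member with the widest difference between the cell types in the insulin experiment. Stromal libraries held 135, 37.6 and 170 CPM in the vehicle group, 165, 40.5 and 150 CPM at 1 ng/mL, and 127, 38.5 and 150 CPM at 10 ng/mL insulin. Epithelial libraries of the same groups held 0.549, 0.620 and 0.375 CPM, then 0.596, 0.263 and 0.298 CPM, and 0.334, 0 and 0.105 CPM. A count of 0 allows up to 3 counts, or 0.340 CPM in that library. The log2 fold change was -7.77 in the vehicle group (standard error 0.465, adjusted p = 0.000973), -8.29 at 1 ng/mL (standard error 0.244, adjusted p = 3.12e-05) and -9.49 at 10 ng/mL (standard error 0.354, adjusted p = 0.00124). With few epithelial reads, the size of these values is set by counting. Summed over libraries, 3534 stromal stand against 17 epithelial reads in the vehicle group, a ratio per counted read of 217 (95% exact interval 135 to 373), and 3673 against 4 reads at 10 ng/mL, a ratio of 717 (280 to 2631). The intervals cover counting error only.

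In the glucose experiment, stromal libraries held 15.6, 3.58 and 110 CPM of IGF2 at 5 mM and 13.7, 3.21 and 20.8 CPM at 50 mM. Epithelial libraries held 0.466, 0.296 and 2.95 CPM, and 0.489, 0.120 and 2.18 CPM. All stromal values were above all epithelial values, with log2 fold changes of -5.00 at 5 mM (standard error 0.520, adjusted p = 0.00543) and -4.17 at 50 mM (standard error 0.437, adjusted p = 0.00468), both called with edgeR. IGF2 was the one member called in all 5 comparisons of the cell types. At 50 mM the call was lost without replicate 1 (adjusted p = 0.0640), where 0 of all genes were called, and in the fit without the replicate block, and it held without replicate 3. Beside these values, stromal markers were also found in the epithelial libraries. The IGF2 level of an epithelial library was 0 to 1.65% (median 0.264%) of that of its stromal partner in the 9 insulin pairs, where the median stromal marker stood at 0.695 to 9.11% (median 2.71%), and IGF2 was below the markers' median in 8 of 9 pairs. In the 6 glucose pairs it was 2.68 to 10.5% (median 3.67%), against 2.20 to 10.5% (median 9.44%) for the markers, and below them in 3 of 6. The part of stromal RNA in the epithelial IGF2 reads was not tested.

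IGF1, the main ligand of IGF1R, had few reads in any library. Stromal libraries held 14, 22 and 21 reads at 5 mM glucose (0.912, 1.38 and 1.28 CPM) and 15, 17 and 0 reads at 50 mM, where the 0 is in the library that held epithelial markers and allows up to 0.207 CPM. The 9 stromal insulin libraries held 1 to 6 reads. Epithelial libraries held 0 to 2 reads in the glucose experiment and 0 or 1 in the insulin experiment, with 0 in 7 of 9. IGF1 passed the filter on low counts between the cell types at 5 mM glucose only, with a log2 fold change of -5.43 (adjusted p = 0.0150, called with edgeR). There, 57 stromal reads stand against 1 epithelial read, a ratio of 51.6 with a 95% exact counting interval from 8.89 to 2073. At 50 mM the ratio was 6.70 (2.59 to 22), from 32 against 5 reads. At 1 ng/mL insulin it was 10.8 (1.60 to 462) from 12 against 1 read, at 10 ng/mL 13.3 (2.08 to 554) from 17 against 1 read, and in the vehicle group 8 stromal reads stood against 0 epithelial reads.

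Further down the pathway, PIK3R1 and AKT1 were lower in epithelial cells in the insulin experiment. PIK3R1, the p85α subunit of PI3-kinase, had 33.2, 31.1 and 31.7 CPM in epithelial and 67.0, 58.4 and 49.9 CPM in stromal libraries of the vehicle group. Its log2 fold change was -0.94 in the vehicle group (standard error 0.0944, adjusted p = 0.00216), -0.88 at 1 ng/mL and -1.0 at 10 ng/mL. AKT1, a kinase of growth and survival signalling, had 95.3, 87.0 and 116 CPM in epithelial and 170, 148 and 160 CPM in stromal libraries of the vehicle group. Its log2 fold change was -0.77 in the vehicle group (standard error 0.0998, adjusted p = 0.00390), -0.71 at 1 ng/mL and -0.79 at 10 ng/mL. For both genes, the epithelial and stromal libraries of the insulin experiment did not overlap, and all 8 alternative fits in each of the 3 groups made the call. Neither was called in the glucose experiment, where the epithelial and stromal libraries of both concentrations together overlapped. PIK3R1 had 20.6, 22.2 and 27.0 CPM against 27.8, 40.2 and 28.7 CPM at 5 mM, with a log2 fold change of -0.68 (95% interval -1.46 to 0.10). AKT1 had 111, 198 and 94.8 CPM against 123, 122 and 130 CPM, and the 198 is in the epithelial library that stood apart. Its log2 fold change there was -0.19 (-1.11 to 0.74), or -0.55 without that replicate and 0.09 without replicate 3, and it was 0.03 without normalization beyond library totals.

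AKT2, the isoform known for insulin-stimulated glucose uptake, was not called between the cell types and had group means of 50.5 to 65.2 CPM. Its log2 fold change was -0.06 in the vehicle group (95% interval -0.29 to 0.18) and -0.18 at 5 mM glucose (-0.96 to 0.60), and both signs turned without normalization beyond library totals (0.02 and 0.04). IRS1 had group means of 37.5 to 46.0 CPM and log2 fold changes of -0.33 in the vehicle group (-0.73 to 0.07) and -0.11 at 5 mM (-0.87 to 0.65, or 0.11 without normalization). IRS2 had 5.33, 4.03 and 7.97 CPM in epithelial and 6.30, 4.16 and 7.58 CPM in stromal libraries of the vehicle group, which overlapped. IRS2 was lower in epithelial cells in 3 of 3 glucose pairs at both concentrations, with 10.8, 6.89 and 12.7 CPM against 21.6, 11.8 and 16.7 CPM at 5 mM and 6.73, 2.64 and 17.6 CPM against 15.3, 13.4 and 19.0 CPM at 50 mM. These differences (log2 fold change -0.93, adjusted p = 0.124, and -1.32, adjusted p = 0.0985, with edgeR) were not called. The difference at 50 mM was called by DESeq2 with all replicates and by edgeR without replicate 3.

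**Figure D2:**
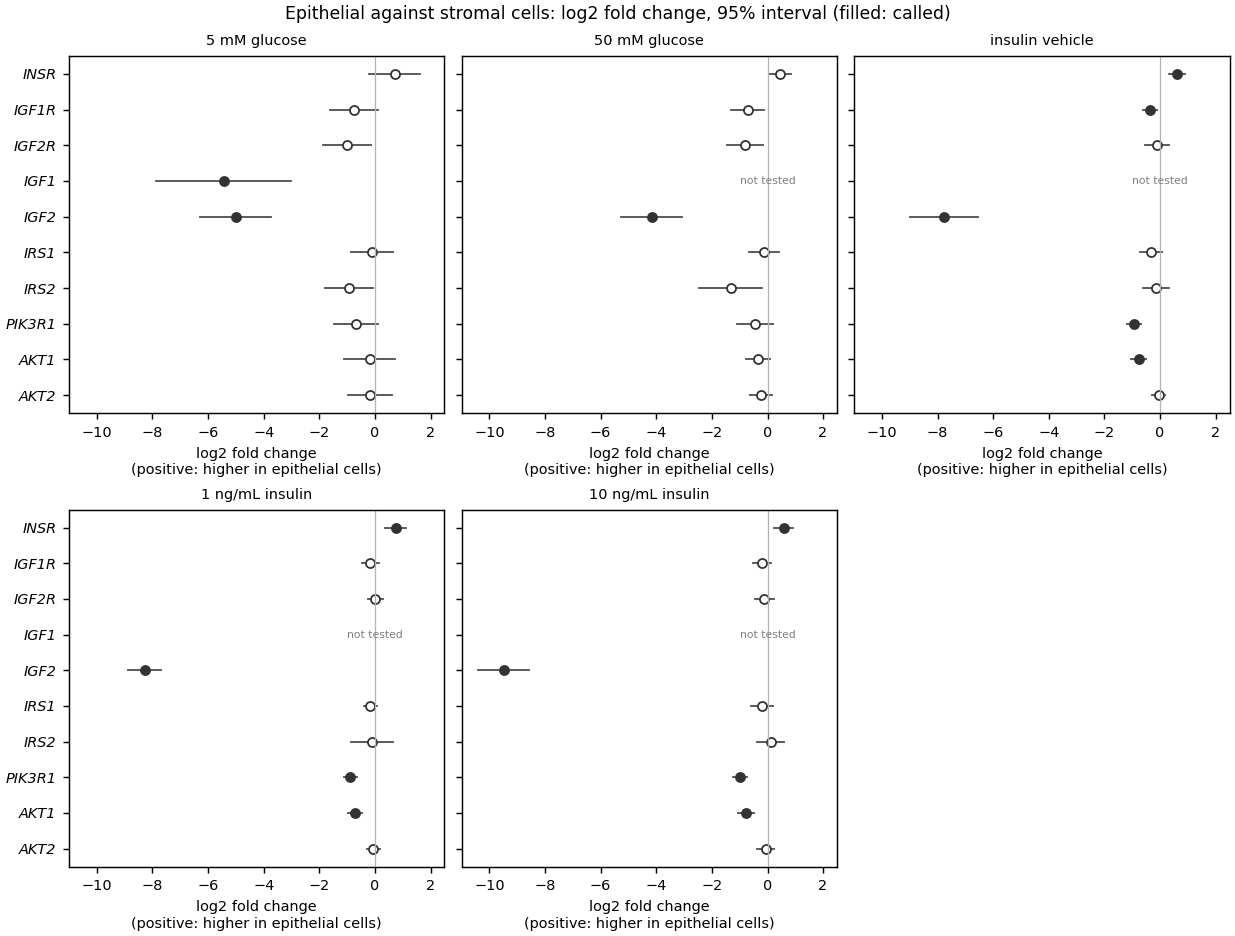
Log2 fold change of epithelial against stromal cells (horizontal axis, positive means higher in epithelial cells) for each gene (vertical axis), 1 panel per treatment, on the same scale. Points are the edgeR estimates, lines their 95% intervals, and filled points were called. IGF2 lies between -9.49 and -4.17 in the 5 panels, INSR between 0.45 and 0.75.

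In counts, 5 of the 9 members tested were called in the vehicle group, against 55.2% of all genes tested there. Of these, 1 was higher in epithelial cells (27.8% of all genes were) and 4 were lower (27.3% were). At 1 ng/mL insulin 4 of 9 were called, beside 58.9% of all genes, and at 10 ng/mL 4 of 9, beside 54.4%. At 5 mM glucose 2 of 10 members were called, beside 21.1% of all genes, both lower in epithelial cells (10.6% of all genes were, and 10.5% were higher). At 50 mM 1 of 9 was called, beside 17.3%. The shares of members called were thus near or below those of all genes. Their median log2 fold change was -0.33 in the vehicle group and -0.72 at 5 mM, where the medians over all genes were 0.0030 and -0.0023. With the stromal library that held epithelial markers left out together with its epithelial partner, the count at 50 mM rose to 5 (IGF1, IGF1R, IGF2, IGF2R and IRS2), while the calls over all genes rose from 2397 of 13892 to 3897 of 14010. Without replicate 1 it was 0. At 5 mM, the count was 3 without replicate 2, beside 3362 of 14165 genes instead of 2944 of 13927.

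The insulin experiment asks whether added insulin changed the expression of its own signalling genes. No member was called in the 6 insulin comparisons, whether by edgeR or by DESeq2. The all-gene calls were 0% in epithelial cells at 1 ng/mL against vehicle, 0.124% at 10 ng/mL against vehicle and 0% at 10 against 1 ng/mL. In stromal cells they were 0.0157%, 0% and 0.0313% in that order. Over 51 tests of members, the log2 fold changes ran from -0.18 to 0.35, and 3 had an unadjusted p under 0.05. IGF1, in both cell types, and IGF2, in epithelial cells, did not pass the filter on low counts and were not tested in the main fits. Leaving IRS2 aside, the 95% intervals of the members tested in these comparisons reached from -0.37 to 0.30, which is a rise of at most 1.23-fold and a fall of at most 1.29-fold in each single test. These limits do not cover the untested ligands. Epithelial IGF2 went from a mean of 0.515 CPM with vehicle (17 reads) to 0.146 CPM with 10 ng/mL (4 reads), lower in 3 of 3 pairs without overlap. Stromal IGF1 went from 0.251 CPM (8 reads) to 0.490 CPM (17 reads), higher in 3 of 3 pairs without overlap. Both rest on few reads and were tested within a cell type only in alternative fits, where neither was called with edgeR. The log2 fold change there was -1.72 to -1.71 for epithelial IGF2 (adjusted p at least 0.968) and 0.96 for stromal IGF1. How many of all genes differ without overlap was not counted.

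INSR, the receptor for the added hormone, was not called in any of the 6 insulin comparisons. The epithelial libraries of replicates 1, 2 and 3 held 45.2, 35.7 and 43.8 CPM with vehicle and 46.6, 32.7 and 49.0 CPM with 10 ng/mL, as given above, which is a log2 fold change of 0.03 (95% interval -0.11 to 0.17). In stromal cells the change was also 0.03 (-0.16 to 0.21). Over all 6 insulin comparisons, INSR stayed between -0.08 and 0.10, and its intervals between -0.27 and 0.29. The difference between the cell types in the response of INSR to 10 ng/mL (stromal minus epithelial) was 0.01 (-0.22 to 0.24).

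The values with an unadjusted p under 0.05 belonged to IGF1R and IRS2 in epithelial cells. IGF1R had 182, 146 and 191 CPM with vehicle, 202, 163 and 199 CPM with 1 ng/mL and 201, 160 and 200 CPM with 10 ng/mL. It was higher than with vehicle in 3 of 3 pairs at both doses, by 0.12 (95% interval 0.02 to 0.21) and 0.10 (0.02 to 0.19) on the log2 scale, with adjusted p = 1.00 and adjusted p = 0.662 (edgeR). The groups overlapped. In stromal cells IGF1R changed by -0.07 at 10 ng/mL. IRS2 had 5.33, 4.03 and 7.97 CPM with vehicle and 6.79, 5.78 and 9.55 CPM with 10 ng/mL, higher in 3 of 3 pairs, with a log2 fold change of 0.35 (0.03 to 0.66, adjusted p = 0.685). Leaving out 1 replicate gave 0.29 to 0.40. At 1 ng/mL its epithelial values were 3.88, 5.44 and 10.9 CPM. The comparisons at 1 and 10 ng/mL share the vehicle libraries. In stromal cells, IGF2 had a log2 fold change of -0.09 (-0.22 to 0.04) between 10 ng/mL and vehicle. Between 10 and 1 ng/mL it was -0.18 (-0.37 to 0.01), and it ranged from -0.29 to -0.02 when 1 replicate was left out, with -0.02 without replicate 1.

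**Figure D3:**
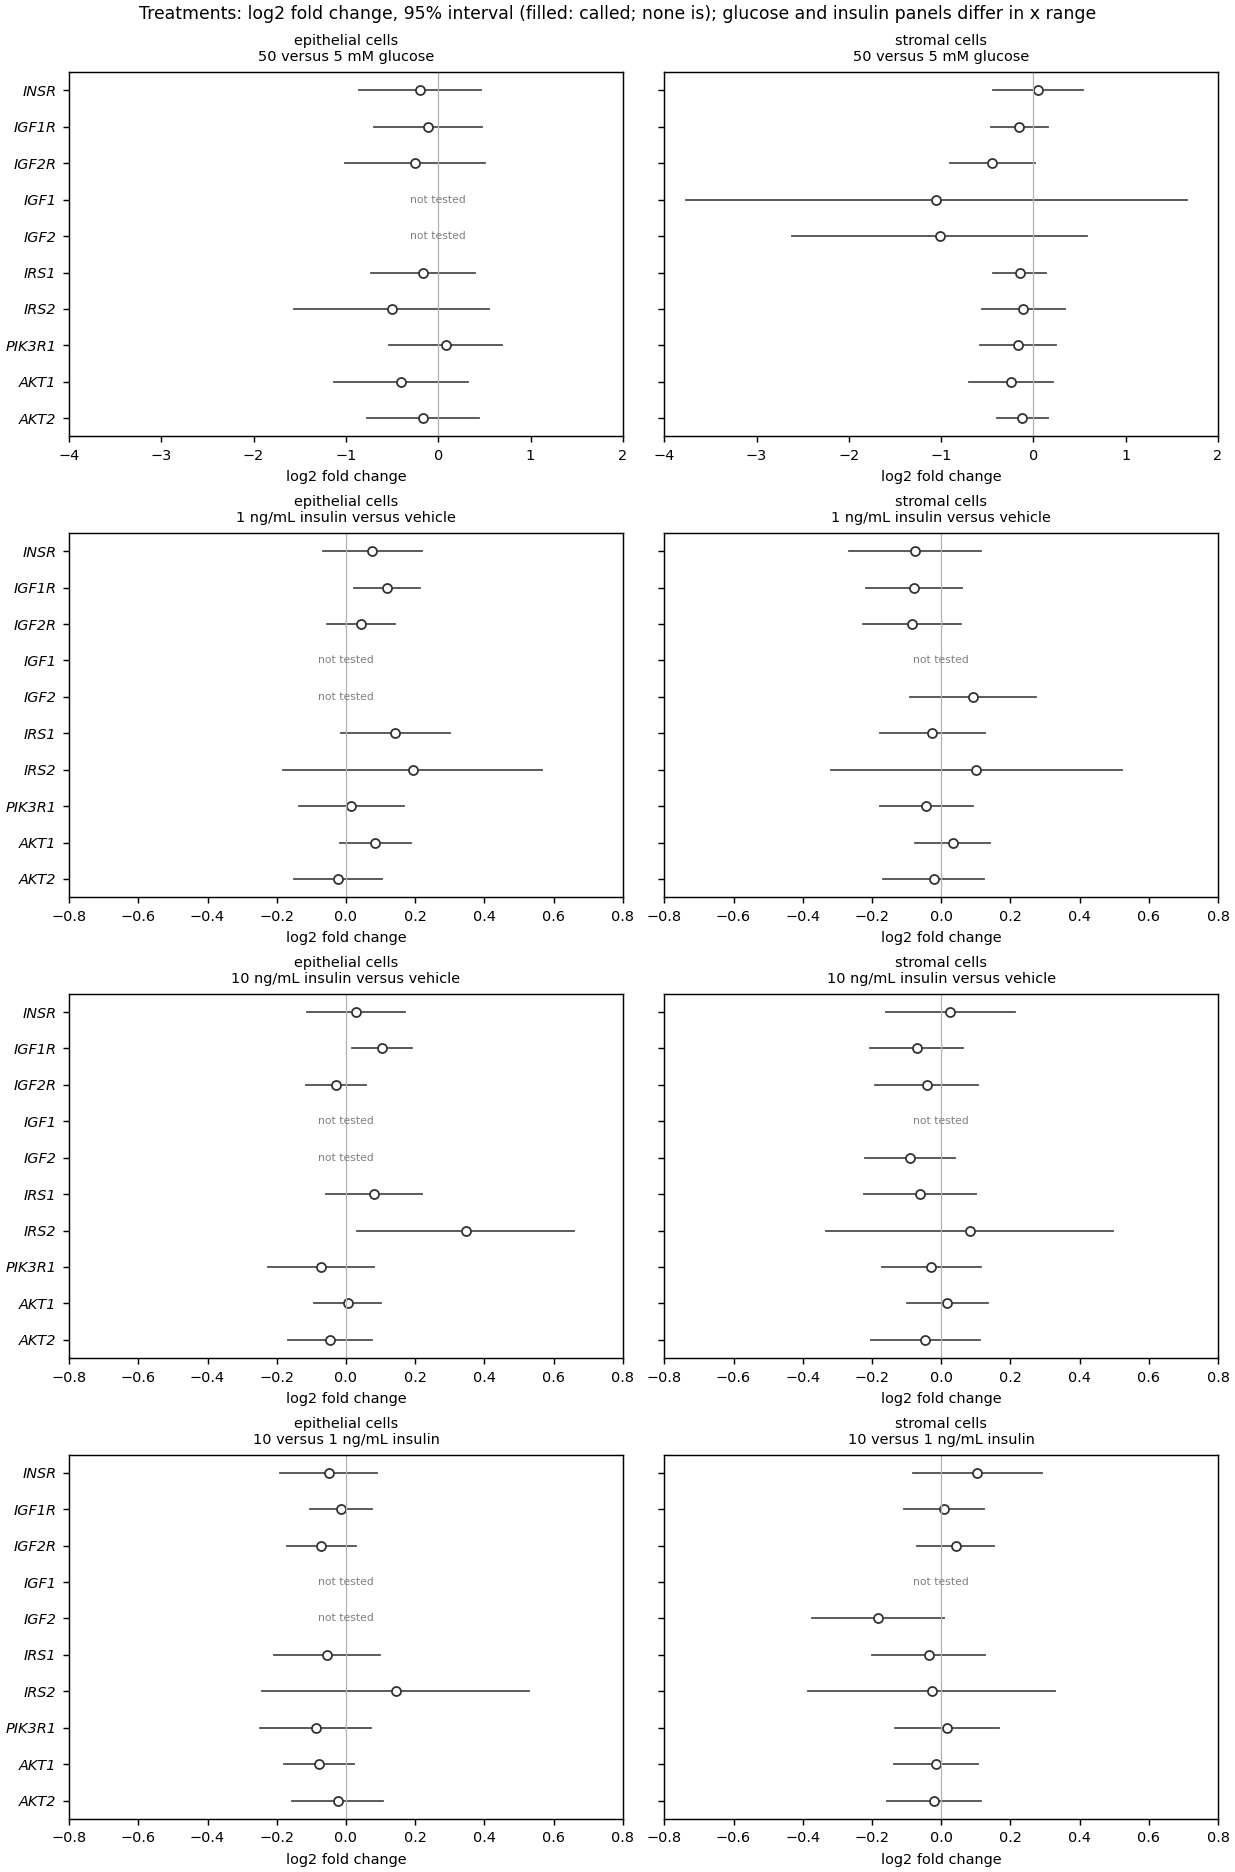
Log2 fold change of each gene (vertical axis) for 50 against 5 mM glucose and for the insulin doses (horizontal axis, wider range in the glucose panels), epithelial cells on the left and stromal cells on the right. Points are edgeR estimates with 95% intervals, and open points were not called, which holds for all of them. The insulin estimates lie between -0.18 and 0.35, the glucose estimates between -1.05 and 0.08.

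The glucose comparison asks whether a high glucose concentration changed these genes. No member was called in epithelial cells (0 of 8 tested, beside 0% of all genes) or in stromal cells (0 of 10, beside 0%), with either edgeR or DESeq2, and 0 of the 18 tests had an unadjusted p under 0.05. Over all genes, 1.55% in epithelial and 4.87% in stromal cells had an unadjusted p under 0.05, and DESeq2 called 0 and 178 genes. Intervals were wider than in the insulin experiment. In epithelial cells, 7 of the 8 estimates were below 0, and they ran from -0.50 (IRS2) to 0.08 (PIK3R1), where the median over all genes was 0.0091. Members share the same libraries, so their signs are not independent of each other. INSR gave -0.20 (95% interval -0.86 to 0.46) and IGF2R -0.25 (-1.01 to 0.51), but both were above 0 without replicate 2 (0.07 and 0.13), whose library at 5 mM stood apart. AKT1 was lower at 50 mM in 3 of 3 epithelial pairs, with means of 135 CPM at 5 mM and 96.5 CPM at 50 mM. The AKT1 groups overlapped, and its log2 fold change ran from -0.61 to -0.05 over the alternative fits, none of which called it. In stromal cells, 9 of the 10 estimates were below 0, where the median over all genes was -0.028. IGF2R was lower at 50 mM in 3 of 3 pairs, with a log2 fold change of -0.44 (-0.91 to 0.02, adjusted p = 0.696 with edgeR). IGF2 was lower in 3 of 3 pairs by -1.02 (-2.61 to 0.58), and this rests on replicate 3. There IGF2 went from 110 to 20.8 CPM, a ratio of 5.30, while the stromal marker sum of the same libraries went from 58040 to 20020 CPM and the epithelial marker sum from 75.5 to 4384 CPM. The part of these markers in the IGF2 value was not tested. Without replicate 3, the log2 fold change of IGF2 was -0.19 and that of IGF2R -0.27. The stromal libraries of the replicates left in this fit also held more epithelial markers at 50 than at 5 mM. INSR gave 0.05 (-0.43 to 0.54), or -0.14 without replicate 3.

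Whether the response differed between epithelial and stromal cells was tested for 50 against 5 mM glucose and for 10 ng/mL insulin against vehicle. No member was called (0 of 10, beside 0% of all genes, and 0 of 9, beside 0%). For glucose, 0 members had an unadjusted p under 0.05. For insulin there was 1, IGF2, with a difference of 1.63 on the log2 scale (95% interval 0.15 to 3.11, adjusted p = 1.00 with edgeR). This difference is the stromal minus the epithelial response, so a positive value means a lower response in epithelial cells. The IGF2 value comes from 17 epithelial reads with vehicle and 4 with 10 ng/mL insulin, and was 0.91 to 2.82 when 1 replicate was left out.

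For several members, replicate numbers differed more than treatments did. In stromal insulin libraries, IGF2 of replicate 2 was at 37.6, 40.5 and 38.5 CPM across doses, while replicates 1 and 3 lay between 127 and 170 CPM. Between replicates of 1 dose, the highest level was 3.89 to 4.54 times the lowest, and within 1 replicate number across the 3 doses it was 1.08 to 1.30 times. In stromal cells at 5 mM glucose, the highest IGF2 level was 30.7 times the lowest. Numbers of the glucose and insulin experiments are not known to be the same animals. IGF2R was highest in replicate 2 of the glucose experiment in both cell types and at both concentrations (498 and 255 CPM in epithelial, 627 and 600 CPM in stromal cells, against 141 to 338 CPM in the other libraries). As parts of the variation of log2(CPM + 1) in the insulin experiment, the cell type held 95.6% for IGF2, 91.8% for PIK3R1, 83.8% for AKT1 and 79.6% for INSR. The replicate number within a cell type held 55.2% for IGF1R, 66.7% for IRS2, 73.1% for IGF2R, 75.7% for IRS1 and 77.4% for AKT2. Doses within a cell type held 0.164% (IGF2) to 11.0% (IGF1R). In the glucose experiment, the replicate number held 62.4% for IGF2R and 72.7% for IRS1, and the concentration 1.69% (PIK3R1) to 27.3% (AKT1). For AKT1 the replicate number held 33.8% there. These parts are not adjusted for there being more replicate numbers than concentrations.

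**Figure D4:**
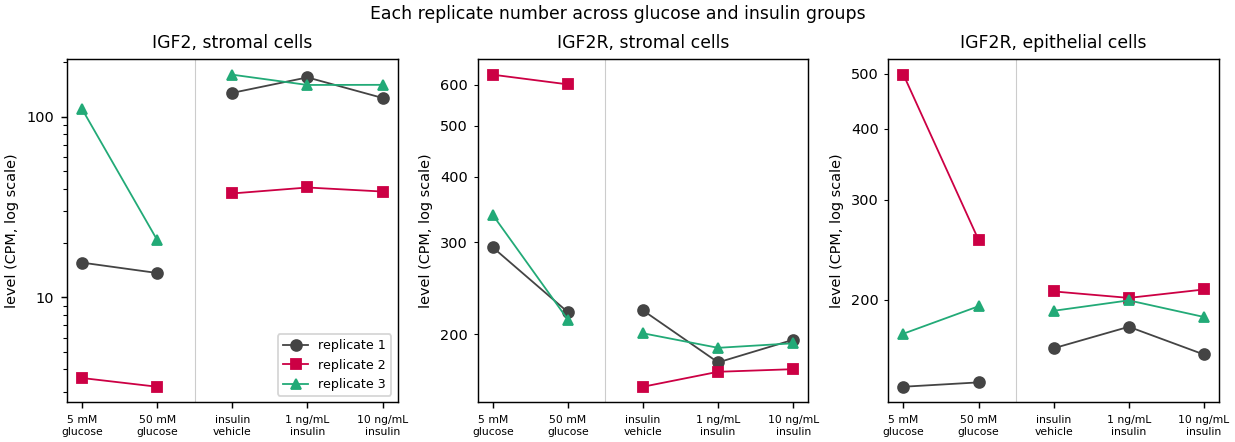
Levels in CPM (vertical axis, log scale) of IGF2 in stromal cells and of IGF2R in stromal and epithelial cells, with 1 line per replicate number across the groups of each experiment (horizontal axis). The IGF2 line of replicate 2 stays at 37.6 to 40.5 CPM across insulin doses, below those of replicates 1 and 3.

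Beyond the members, 65 other genes of the pathway were listed, in 5 classes by role, and 63 had a name in the files. None was called by edgeR or DESeq2 in the 8 treatment comparisons, with 57 to 61 tested in each and 0 to 6 at an unadjusted p under 0.05 with edgeR, or by edgeR in the 2 tests of the difference between the cell types. Between the cell types, 29 of the 59 tested were called in the vehicle group (11 higher and 18 lower in epithelial cells), beside 55.2% of all genes, and their median log2 fold change was -0.14, against 0.0030 over all genes. At 5 mM glucose 8 of 59 were called (2 higher, 6 lower), beside 21.1% of all genes, with a median of -0.23 against -0.0023. Of the 23 adaptors and receptor regulators tested at 5 mM, 5 were called, and in the vehicle group it was 15 of 22, with 5 higher and 10 lower. PI3-kinase subunits and lipid phosphatases had 3 of 9 called in the vehicle group and 2 of 8 at 5 mM, the AKT branch 3 of 10 and 1 of 10, the TSC and mTOR branch 7 of 14 and 0 of 14, and receptor and ligand processing 1 of 4 and 0 of 4.

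PIK3CB, the catalytic subunit p110β of PI3-kinase, was the gene of the list called in both with an absolute log2 fold change of at least 2. It had 81.5, 68.8 and 69.9 CPM in epithelial and 7.17, 8.15 and 7.15 CPM in stromal libraries of the vehicle group, and differed by 3.21 on the log2 scale (standard error 0.158, adjusted p = 0.000899 with edgeR). At 5 mM glucose it had 63.0, 24.8 and 67.2 CPM against 8.60, 9.05 and 6.34 CPM, and the log2 fold change was 2.37 (standard error 0.460, adjusted p = 0.0179). The stromal library that held epithelial markers had 53.3 CPM of PIK3CB, against 6.34 to 13.7 CPM in the other stromal glucose libraries. In all, 7 genes of the list were called in both groups of libraries, each in the same direction. The share of all genes called in both was not computed, while 55.2% were called in the vehicle group and 21.1% at 5 mM. Whether the list differs from other genes in this count is therefore not known. Some others of the 7 are named here after their values were seen. PIK3CA, which encodes the catalytic subunit p110α, was lower in epithelial cells, with log2 fold changes of -1.41 in the vehicle group and -1.62 at 5 mM. Insulin libraries held between 69.7 and 86.1 CPM of it in epithelial cells and between 161 and 218 CPM in stromal cells. Also lower were SOCS2, a suppressor of cytokine signalling (-1.43 and -2.10), SH2B3, an adaptor protein (-2.23 and -1.89), and CBLB, a ubiquitin ligase (-0.79 and -1.18). SOCS6, which can bind the activated insulin receptor, was higher in epithelial cells (1.82 and 2.81), with 30.7 to 48.0 CPM against 6.75 to 10.6 CPM in insulin libraries.

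**Figure D5:**
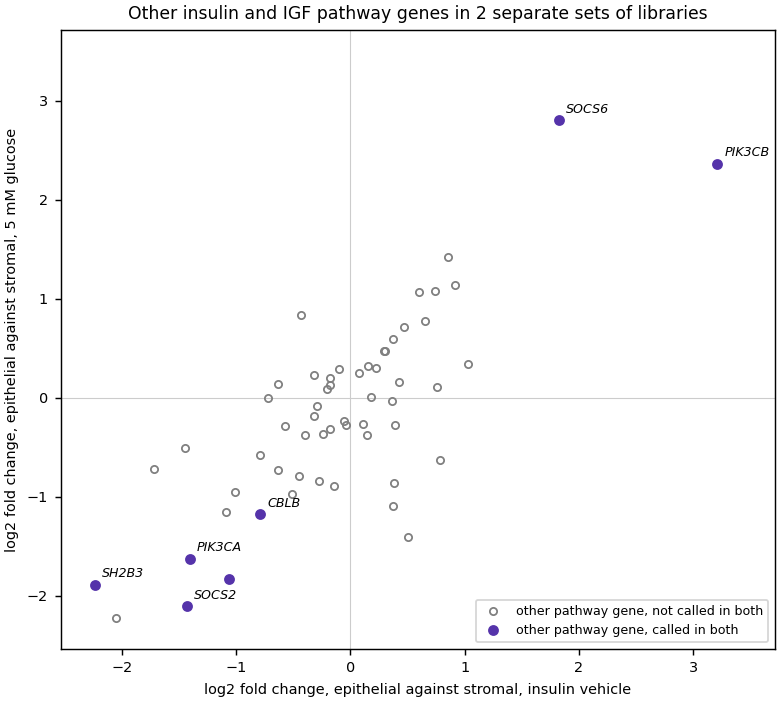
Log2 fold change of epithelial against stromal cells in the insulin vehicle group (horizontal axis) and at 5 mM glucose (vertical axis) for the 58 other pathway genes tested in both, 1 point per gene. Filled points are the 7 genes called in both, labelled where the text names them, and 43 of the 58 genes have the same sign in both. Neither share was computed over all genes.

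Genes with a similar pattern to INSR, IGF1R, IGF1 and IGF2 were sought among 12174 genes with a mean of at least 1 CPM, by Pearson's r of log2(CPM + 1) over the 30 libraries, as a description without a test. These libraries share cell types and replicate numbers, which enter every r. INSR was most like MTMR3 (r = 0.945), CLK3 (0.941) and WDR60 (0.938), IGF1R most like PLOD1 (0.888), SLC41A1 (0.878) and CNTNAP1 (0.867), and IGF2 most like DENND2A (0.976), RAB3IL1 (0.968) and GDF7 (0.958). IGF1, with its few reads, was most like RFX2 (0.888), EFEMP1 (0.868) and GCNT2 (0.866). After the group means were taken out, INSR was most like AMBRA1 (0.923), MTMR3 (0.862) and CHERP (0.858), and IGF1R most like TRIM3 (0.897), PLOD1 (0.888) and CDAN1 (0.884). IGF2 was then most like CDKN1C (0.920), PGF (0.904) and SV2A (0.880), and IGF1 most like FGF10 (0.810) and TNFSF4 (0.80).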

How the data were processed

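Stranded RNA-seq libraries were sequenced as single-end reads. The authors trimmed them with Cutadapt, mapped them uniquely with Rsubread to the Ensembl cow genome and deposited raw counts per gene from featureCounts, used here without change. Whether the counting used strand is not given in the sources used here. The deposited DESeq2 tables served for gene names only, and their fold changes and p-values were not used. CPM were computed from the totals of 8826470 to 16647701 reads. Each comparison of 6 libraries was tested with edgeR 4.0.16 (filterByExpr, TMM normalization, quasi-likelihood test), and differences in response with 12 libraries. The replicate number was a block, after the paired sample design that the paper states for its DESeq2 tests. The paper reports no test between the cell types, so pairing epithelial and stromal libraries by number is an assumption made here. DESeq2 1.42.0 was an alternative. Members, lists and tests were chosen with earlier results of these data known. All 10 members are named, other pathway genes if called between the cell types in both the vehicle and 5 mM groups with an absolute log2 fold change of at least 2, or in a treatment comparison, and the 3 genes most like each of INSR, IGF1R, IGF1 and IGF2. PIK3CA, SOCS2, SH2B3, CBLB and SOCS6 did not reach that log2 fold change in both groups and were named after their values were seen. A few genes are not reported here. Same-numbered libraries deviated together in the 8 treatment comparisons, where the lowest correlation of any pair was 0.198. Over the 5 comparisons of the cell types the lowest was 0.0327, and only in 3 was every pair over 0.1. Replicates differed by more than sampling noise (chi-square per degree of freedom at least 16.3). Transcript lengths, gene coordinates and sequences were not used here.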

Additional observations from a re-analysis of the deposited data

Results flagged for a closer look

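PIK3R1 was flagged because its 3 epithelial pairs moved one way and its 3 stromal pairs the other between vehicle and 1 ng/mL insulin: the log2 fold change was 0.016 in epithelial and -0.042 in stromal cells, and the difference between them was not tested. Both are smaller than their standard errors, and such opposite directions were looked for in 9 members and 2 contrasts.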

How the results depend on the processing

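With the replicate block left out, the count of members called fell from 1 to 0 at 50 mM glucose between the cell types (all genes: 2397 to 1088). The block changed no other count of members called by over 1.5 times. Without it, calls over all genes fell from 16 to 0 in epithelial cells at 10 ng/mL insulin against vehicle. In stromal cells they fell from 2 to 0 at 1 ng/mL against vehicle and from 4 to 0 at 10 against 1 ng/mL. At 50 mM the count was also 4 with DESeq2 (3529 of all genes), 2 without normalization beyond library totals (2886) and 0 to 5 when 1 replicate was left out (0 to 3897). At 5 mM it rose from 2 to 4 with all libraries of the experiment in 1 fit (all genes: 2944 to 5527), and in the vehicle group it was 3 to 4 instead of 5 when 1 replicate was left out (5195 to 5788 instead of 7392). The 10 counts for treatments and for differences between the cell types were 0 under all 74 alternative fits.

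Of 261 alternative values of 33 fold changes, 238 kept direction and side of the threshold, 5 became called, 6 lost the call and 12 turned direction, all 12 in values that were not called. Without normalization, AKT2 in the vehicle group gave 0.023, and AKT2, AKT1 and IRS1 at 5 mM gave 0.036, 0.032 and 0.11 between the cell types. This scaling moved the median of all genes by 0.22 at 5 mM and 0.15 at 50 mM. With 1 replicate left out, IGF2R ranged from -0.32 to 0.0015 between the cell types in the vehicle group, and IRS1 (-0.25 to 0.066) and AKT1 (-0.55 to 0.089) also turned at 5 mM. With 10 ng/mL insulin, INSR ranged from -0.053 to 0.094 in epithelial and from -0.0075 to 0.065 in stromal cells. With 50 mM glucose it ranged from -0.37 to 0.075 and from -0.14 to 0.23, and IGF2R from -0.48 to 0.13 in epithelial cells. The cause was not tested. The planned order of members by level per length was not run, since transcript lengths were not used here. Depth limits IGF1 in all groups and IGF2 in epithelial cells.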
